A study of Homo sapiens with 12 samples.

Results

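The 9 genes described here encode the receptor subunits for type I interferon (IFNAR1 and IFNAR2) and for interferon gamma (IFNGR1 and IFNGR2), and the transcription factors STAT2, IRF1, IRF3, IRF7 and IRF9. They were chosen by symbol for their place in interferon signaling, and all 9 were found among the 59276 features of the deposited table and among the 11939 features that passed the filter for testing. Total RNA was sequenced from MM1S, a human multiple myeloma cell line, in 12 libraries. There were 3 untreated libraries with a labelled time point of day 0 and 3 libraries each from cells exposed to NGI-1 for 2, 3 and 5 days. NGI-1 is a small molecule inhibitor of the oligosaccharyltransferase, the enzyme complex that attaches N-glycans to proteins in the endoplasmic reticulum. All groups are of 1 cell line. The 3 NGI-1 groups were compared with the same untreated libraries, all of day 0. The labels name NGI-1 for the day 0 libraries too, and whether these cells received the vehicle is not given in the sources used here.

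Type I interferons bind a receptor made of IFNAR1 and IFNAR2, which carry the kinases TYK2 and JAK1. The kinases phosphorylate STAT proteins, and STAT2 with IRF9 is part of ISGF3, the complex that binds interferon response elements in genes such as ISG15 and OAS1. Interferon gamma binds IFNGR1 and IFNGR2, whose signal reaches gamma activation sites, IRF1 being an early target. IRF3 and IRF7 sit upstream, where sensors of foreign or misplaced nucleic acid activate them to switch on interferon genes. The receptor subunits are glycoproteins of the cell surface, made through the endoplasmic reticulum, whereas STAT2 and the IRFs are not secretory proteins. Only RNA was analysed here.

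Values are TPM, a length-corrected share of all transcripts in a library, and tests were made on the deposited log2(TPM + 1) scale with limma. A gene was called higher or lower where its log2 fold change was over 0.5 in size with an adjusted p (Benjamini-Hochberg) under 0.05. A value not called can therefore still have an adjusted p under 0.05, with a change under that size. TPM keeps no read count, so the counting error is unknown and precision was read from the spread between libraries. The labels do not say whether the 3 libraries of a group came from separate cultures, so p-values measure the spread between libraries, which may be technical. Most features fell as shares. Over all tested features the median change against untreated, on the log2 scale, was -0.18 for day 2, then -0.73 for day 3, and -0.99 for day 5. Each comparison was therefore also made after rescaling, in which every library was divided by 1 factor that removed its median shift over the 5433 features averaging 10 TPM or more. Of the day 3 libraries, replicate 2 had the highest rescaling factor (0.891, against 0.808 and 0.768), and of the day 5 libraries, replicate 3 (0.739, against 0.573 and 0.620). Both lay nearer to the earlier days than their replicates.

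The promoters of IRF1 and IRF9 are shown because each holds a match to the gamma activation site and because these genes followed different courses. The motif was spelled TTCNNNGAA, which reads the same on both strands, and was searched in the 250 bases before each annotated start in RefSeq (GRCh38.p14). The table held 8 such entries for 6 of the 9 genes, IFNAR1, IFNGR1, IFNGR2, STAT2, IRF1 and IRF9, and 2 of the entries held the motif, against 6.57% of all 35116 promoters. The interferon response element, spelled as GAAA, any 2 bases and GAAA again, searched on both strands, was in none of the 8 entries and in 3.02% of all promoters. A match is a description of letters, not evidence of binding. Sequences are given 5′ to 3′ on the strand of the gene, with the motif in capitals. The IRF1 sequence (chr5:132490799-132491023, minus strand) is the stretch before the first annotated IRF1 exon, with the motif starting 124 bases before the RefSeq start. The IRF9 sequence (chr14:24161192-24161220, plus strand) is the motif with 10 bases on either side, starting 63 bases before the RefSeq start, and it lies in an annotated exon of the longer IRF9 transcript IRF9-202.
IRF1: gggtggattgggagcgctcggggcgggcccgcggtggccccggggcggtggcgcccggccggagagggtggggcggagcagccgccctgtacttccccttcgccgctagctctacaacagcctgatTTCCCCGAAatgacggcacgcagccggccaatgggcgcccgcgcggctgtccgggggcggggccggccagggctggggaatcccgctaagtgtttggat
IRF9: accacgtgatTTCTGGGAAaaggccctcc

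IFNGR1, STAT2, IRF9 and IRF7 were called higher after 2 days of NGI-1, 4 of the 9 genes, and 0 were called lower. Of all tested features 8.04% were called higher and 23.2% lower in that comparison. At day 3, IFNGR1, IRF9 and IRF7 were higher and IFNAR1, IFNAR2, IFNGR2 and IRF1 lower, 3 and 4 genes, where 7.59% of all features were called higher and 61.5% lower. At day 5 the same 3 genes were higher and 5 were lower, IRF3 having joined the 4 of day 3, where 7.73% of features were higher and 69.8% lower. The median log2 fold change of the 9 genes was 0.41, -0.37 and -0.70 on days 2, 3 and 5, against -0.18, -0.73 and -0.99 for all tested features. After rescaling, 5 genes were higher and 0 lower at day 2 (all features 12.9% higher and 11.4% lower), 4 higher and 1 lower at day 3 (23.9% and 24.2%), and 5 higher and 2 lower at day 5 (27.5% and 26.9%). IFNGR1, STAT2, IRF9 and IRF7 were called higher at all 3 times on that scale, joined by IRF1 at day 2 and IRF3 at day 5. The lower genes on that scale were IFNAR1 at day 3 and IFNAR1 and IFNAR2 at day 5. Among all called features, the lower ones made up 74.3%, 89.0% and 90.0% on days 2, 3 and 5 on the deposited scale, and 46.9%, 50.3% and 49.4% after rescaling.

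**Figure D1:**
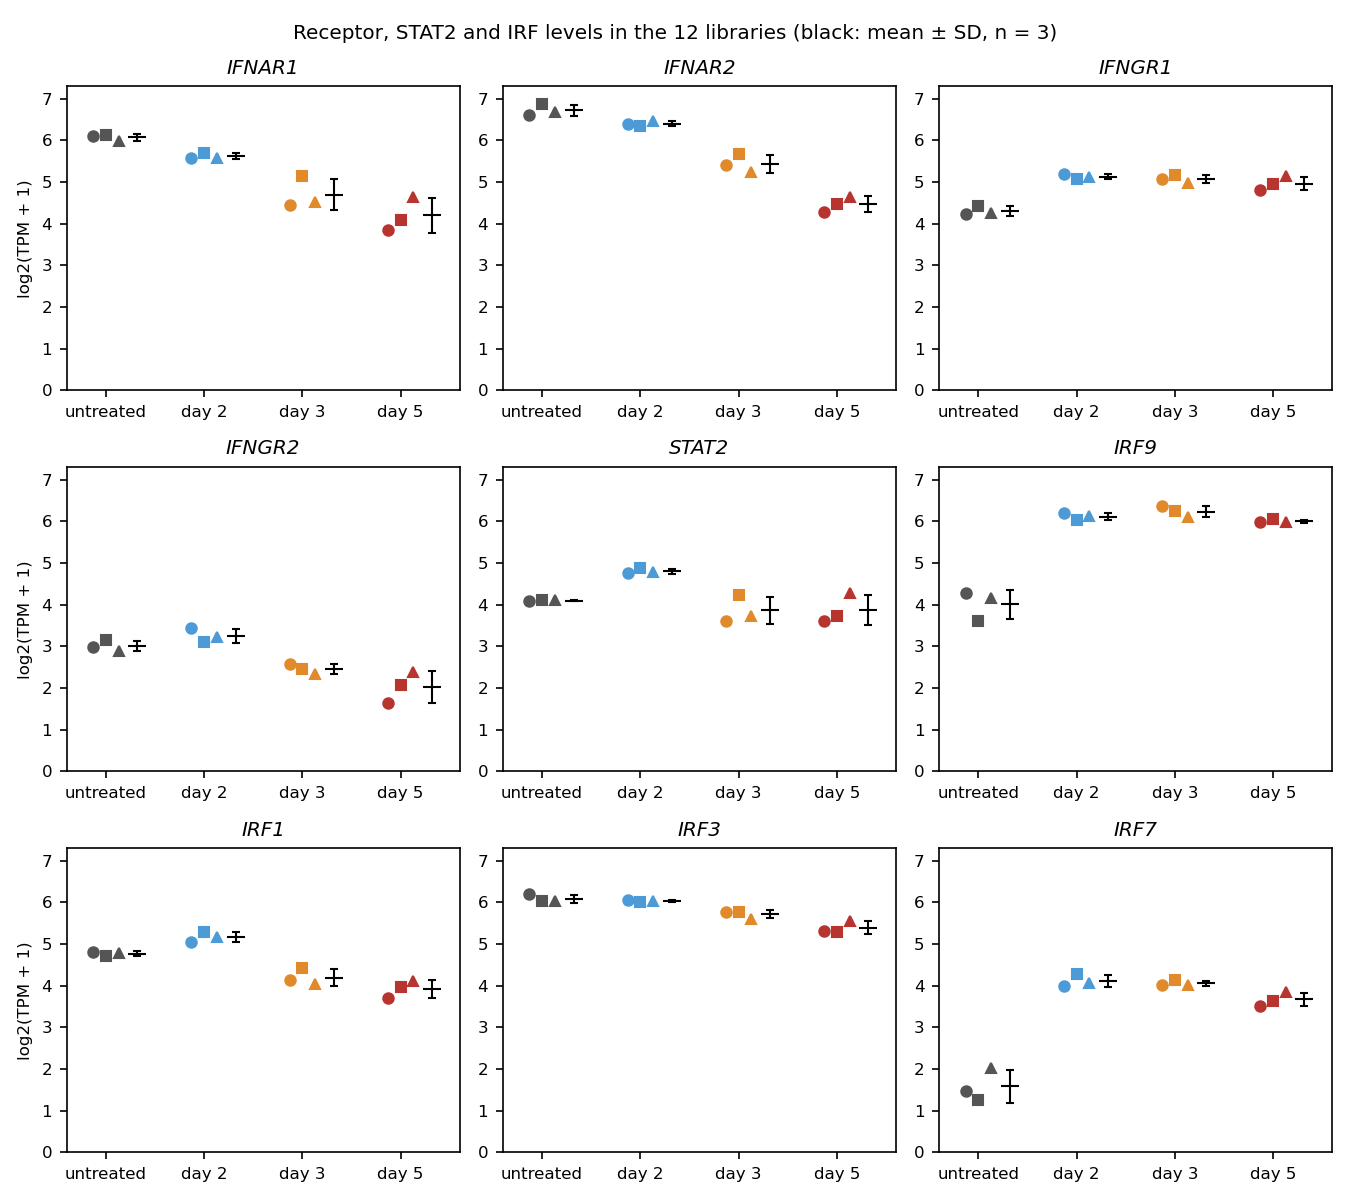
Level of each of the 9 genes as log2(TPM + 1) in the 12 libraries, with 1 marker shape per replicate number and the group mean ± SD (n = 3) in black. IRF9 and IRF7 stand higher in every NGI-1 library than in every untreated one, and IFNAR1 and IFNAR2 stand lower.

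The type I receptor subunits fell together. IFNAR1, which TYK2 binds, lies at chr21:33324477-33359862 (GRCh38, plus strand, GENCODE release 29). In these bulk libraries fewer cells of a kind and less RNA per cell cannot be told apart. The TPM of IFNAR1 was 68.2, 68.4 and 62.2 in the untreated libraries, 46.5, 51.2 and 46.6 at day 2, 20.8, 34.2 and 21.8 at day 3, then 13.4, 16.1 and 24.1 at day 5. Every NGI-1 library was below every untreated one, and the day 3 and day 5 libraries overlapped. The log2 fold change against untreated was -0.45 (SE 0.195, limma adjusted p = 0.0723) at day 2, -1.37 (adjusted p = 2.00e-05) at day 3 and -1.87 (adjusted p = 6.48e-07) at day 5. After rescaling it was -0.22, -0.53 and -0.69, called at days 3 and 5.

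IFNAR2, the high-affinity subunit that binds JAK1 and STAT2, lies at chr21:33229901-33265675 on the plus strand. Its TPM was 96.2, 115.9 and 101.9 in the untreated libraries, 82.9, 79.6 and 87.4 at day 2, 41.4, 49.8 and 36.8 at day 3, then 18.3, 21.2 and 24.1 at day 5. The 4 groups did not overlap and were ordered by time. Against untreated, the log2 fold change was -0.32 (SE 0.124, limma adjusted p = 0.0473) at day 2, under the size set for a call, -1.28 (adjusted p = 5.55e-07) at day 3 and -2.26 (adjusted p = 1.19e-09) at day 5. After rescaling it was -0.09, -0.43 and -1.06, and only the day 5 value was called. The day 3 value (limma adjusted p = 7.19e-04) was under the size set for a call. The read-through gene AP000295.1, which joins IFNAR2 to IL10RB, shares exons with IFNAR2, so reads of the 2 can be split between them. Its mean TPM was 9.64 ± 2.01 (SD, n = 3) in the untreated libraries and 2.58 ± 1.17 (SD, n = 3) at day 5.

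The subunits of the interferon gamma receptor moved apart. IFNGR1, the ligand-binding chain, lies at chr6:137197484-137219449 on the minus strand. Its TPM was 17.8, 20.6 and 18.0 in the untreated libraries, 35.6, 32.4 and 33.7 at day 2, 32.4, 34.9 and 30.5 at day 3, then 27.0, 29.7 and 34.1 at day 5. All NGI-1 libraries were above all untreated ones, and the 3 NGI-1 groups overlapped. Its log2 fold change was 0.82 (SE 0.105, limma adjusted p = 3.43e-05), 0.77 and 0.66 on days 2, 3 and 5, and 1.03, 1.59 and 1.83 after rescaling. All 6 values were called.

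IFNGR2, the chain that carries JAK2 into the complex, lies at chr21:33402896-33479348 on the plus strand. Its TPM was 6.90, 7.87 and 6.41 in the untreated libraries, 9.81, 7.55 and 8.29 at day 2, 4.92, 4.49 and 4.04 at day 3, then 2.09, 3.21 and 4.25 at day 5. Untreated and day 2 libraries overlapped, and those of days 3 and 5 were below both. On the log2 scale the change was 0.24 (SE 0.174, limma adjusted p = 0.279) at day 2, -0.56 (adjusted p = 0.00976) at day 3 and -0.98 (adjusted p = 1.26e-04) at day 5, whereas after rescaling it was 0.43, 0.18 and 0.02, none of them called. The day 3 call was lost without untreated replicate 2 (-0.48) or without day 3 replicate 3 (-0.50). TMEM50B, an overlapping gene on the opposite strand, had a mean TPM of 15.9 ± 1.37 (SD, n = 3) in untreated libraries and 32.8 ± 1.95 (SD, n = 3) at day 5. Whether counting used the strand is not given in the sources used here.

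IFNAR2, IL10RB, IFNAR1 and IFNGR2 lie side by side within 249.4 kb of chromosome 21. IL10RB, a shared chain of the type III interferon and interleukin-10 receptors, had a mean TPM of 6.53 ± 1.20 (SD, n = 3) in untreated libraries, 4.87 ± 1.85 at day 2, 1.61 ± 1.05 at day 3 and 0.900 ± 0.966 at day 5. Its log2 fold change at day 5 was -2.09 (SE 0.365, limma adjusted p = 1.04e-04), and -1.30 after rescaling (adjusted p = 0.0150). At day 5 all 4 neighbors were called lower on the deposited scale, as were 69.8% of all tested features, and after rescaling the 3 without IFNGR2 were, as were 26.9%.

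IRF9, the DNA-binding subunit of ISGF3, rose in all NGI-1 groups. It lies at chr14:24161053-24166565 on the plus strand, and its promoter match is printed above. Its TPM was 18.3, 11.1 and 16.7 in the untreated libraries, 71.8, 64.0 and 68.8 at day 2, 81.7, 74.5 and 67.1 at day 3, then 62.0, 65.0 and 62.0 at day 5. The untreated libraries lay far below all others, and the NGI-1 days lay close to each other. Against untreated, the log2 fold change was 2.11 (SE 0.143, limma adjusted p = 1.37e-07), 2.23 and 2.00 on days 2, 3 and 5, and 2.30, 3.05 and 3.17 after rescaling. The overlapping read-through AL136295.5 stayed at a mean TPM of 0.163 to 0.338 in the 4 groups.

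STAT2, the partner of IRF9 in ISGF3, rose at day 2, and its later shares did not pass the test against untreated on the deposited scale. It lies at chr12:56341597-56360155 on the minus strand. Its TPM was 15.9, 16.2 and 16.3 in the untreated libraries, 25.9, 28.3 and 26.3 at day 2, 11.3, 17.8 and 12.3 at day 3, then 11.1, 12.3 and 18.5 at day 5. The day 2 libraries were above all others, and in each later group 2 libraries were below the untreated range and 1 above it. Its log2 fold change was 0.70 (SE 0.177, limma adjusted p = 0.00577) at day 2, -0.24 (adjusted p = 0.228) at day 3 and -0.23 (adjusted p = 0.241) at day 5. After rescaling it was 0.91, 0.57 and 0.92, called at all 3 times, so the direction at days 3 and 5 turned with the scaling. The libraries above the untreated range were day 3 replicate 2 and day 5 replicate 3, those with the highest rescaling factors of their groups.

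IRF7, the factor that amplifies type I interferon production, had the largest rise of the 9 genes at each time on the deposited scale, and IRF9 had it at day 5 after rescaling. It lies at chr11:612553-615999 on the minus strand. Its TPM was 1.79, 1.40 and 3.07 in the untreated libraries, 14.9, 18.3 and 15.7 at day 2, 15.3, 16.5 and 15.1 at day 3, then 10.5, 11.5 and 13.3 at day 5. The lowest NGI-1 library was above the highest untreated one. On the log2 scale the change was 2.52 (SE 0.170, limma adjusted p = 1.32e-07), 2.46 and 2.08 on days 2, 3 and 5, and 2.55, 3.09 and 3.04 after rescaling. The untreated level was close to the added value of 1, so these folds understate the change in TPM.

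IRF3, which is present in most resting cells and activated by phosphorylation, was abundant in all libraries. It lies at chr19:49659569-49665875 on the minus strand and overlaps BCL2L12 on the other strand. Its TPM was 72.3, 63.8 and 63.9 in the untreated libraries, 65.9, 63.6 and 64.1 at day 2, 53.4, 53.2 and 47.5 at day 3, then 38.6, 37.9 and 46.2 at day 5. Untreated and day 2 libraries overlapped, and those of days 3 and 5 stood below them in 2 steps. Against untreated, the log2 fold change was -0.04 (SE 0.0956, limma adjusted p = 0.738), -0.37 and -0.70 on days 2, 3 and 5, called only at day 5 (adjusted p = 1.08e-05), but 0.19, 0.48 and 0.51 after rescaling, where the day 5 value was called higher. BCL2L12 went from a mean TPM of 45.2 ± 6.33 (SD, n = 3) untreated to 6.25 ± 1.71 at day 5.

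IRF1, an activator induced by interferon gamma, lies at chr5:132481609-132490798 on the minus strand, just downstream of the promoter sequence printed above. Its TPM was 27.1, 25.1 and 26.4 in the untreated libraries, 32.3, 38.1 and 35.1 at day 2, 16.4, 20.4 and 15.3 at day 3, then 11.9, 14.6 and 16.2 at day 5. The day 2 libraries were all above the untreated ones and the later libraries all below. Its log2 fold change was 0.41 (SE 0.128, limma adjusted p = 0.0195) at day 2, under the size set for a call, -0.57 (adjusted p = 9.83e-04) at day 3 and -0.85 (adjusted p = 2.84e-05) at day 5. After rescaling it was 0.63, 0.25 and 0.32, called higher at day 2 only, so the direction at days 3 and 5 turned with the scaling. Without day 3 replicate 3 the day 3 value was -0.49 and was not called. The antisense gene IRF1-AS1 had mean TPMs of 4.29, 6.83, 6.42 and 5.25 in the 4 groups by time.

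**Figure D2:**
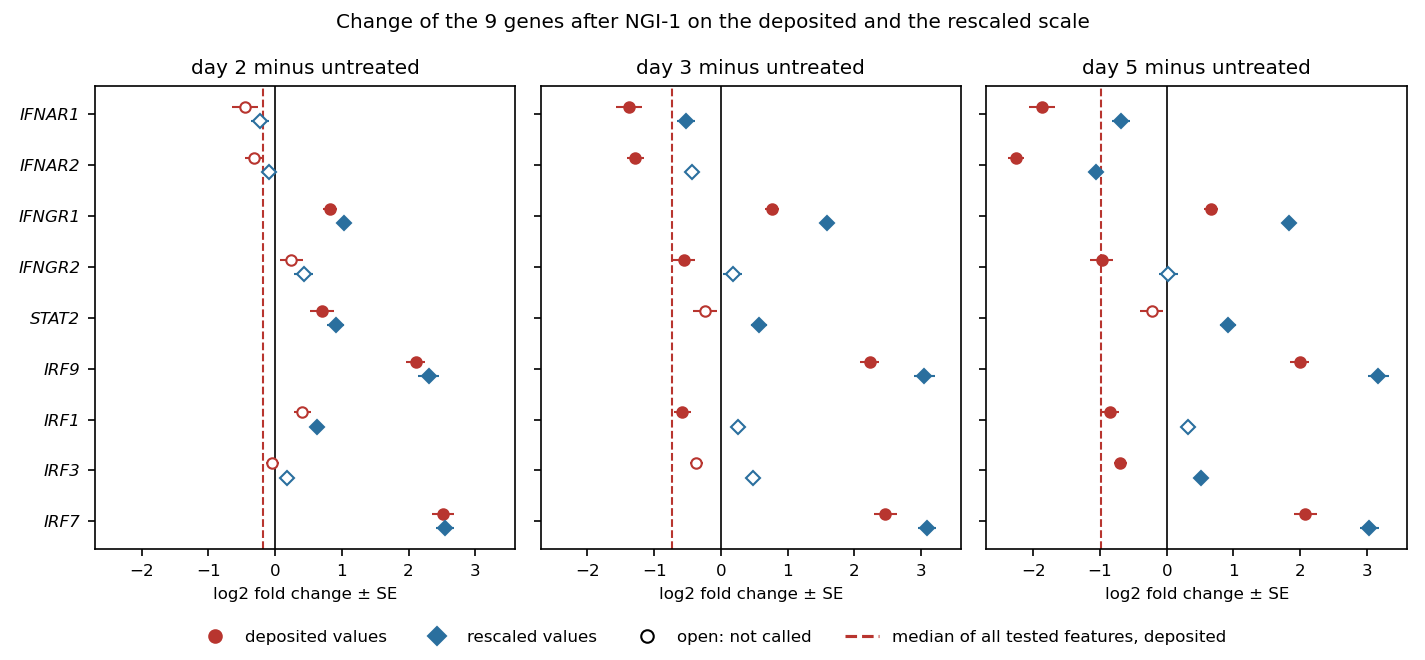
Log2 fold change ± SE of the 9 genes against untreated at 2, 3 and 5 days of NGI-1, on the deposited scale (red circles) and after rescaling (blue diamonds), with filled symbols for called values and a dashed line at the median of all 11939 tested features. IFNGR1, IRF9 and IRF7 lie to the right of 0 on both scales at all 3 times, IFNAR1 and IFNAR2 lie to the left, and STAT2, IRF1, IRF3 and IFNGR2 lie on different sides of 0 on the 2 scales at days 3 and 5.

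Between days 2 and 3, 5 of the 9 genes were called lower and 0 higher on the deposited scale, where 55.5% of all features were called lower and 3.22% higher. They were IFNAR1 (-0.92), IFNAR2 (-0.96), IFNGR2 (-0.80), STAT2 (-0.94) and IRF1 (-0.98, limma adjusted p = 2.88e-05), against a median of -0.57 over all features. After rescaling 0 of the 9 were called lower and 3 higher, IFNGR1 (0.56), IRF9 (0.75) and IRF7 (0.54). Of all features 13.6% were lower and 14.3% higher on that scale. IFNAR2 (-0.33), STAT2 (-0.34) and IRF1 (-0.37) had an adjusted p under 0.05 there and were under the size set for a call. Between days 3 and 5, IFNAR2 was the 1 gene called, with a log2 fold change of -0.98 (SE 0.124, limma adjusted p = 2.03e-04) on the deposited scale, where 13.1% of features were lower and 0.670% higher. It was also the 1 gene called after rescaling, with -0.64 (adjusted p = 7.87e-04), where 2.03% of features were lower and 4.43% higher. Without day 5 replicate 3, IFNAR1 (-0.73) and IFNGR2 (-0.60) were called lower between days 3 and 5 as well.

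Ratios of partner genes within a library do not depend on its scaling, and they are given without a test. IFNGR1 exceeded IFNGR2 by a TPM ratio of 2.57, 2.61 and 2.81 in the untreated libraries, 3.63, 4.30 and 4.06 at day 2, 6.59, 7.77 and 7.55 at day 3, then 12.9, 9.24 and 8.04 at day 5. The 4 groups did not overlap in this ratio. For IFNAR2 to IFNAR1 the mean log2 ratio was 0.66 ± 0.141, 0.79 ± 0.138 and 0.76 ± 0.226 (SD, n = 3) in untreated, day 2 and day 3 libraries, and 0.28 ± 0.245 at day 5. Its groups overlapped from untreated to day 3, and each day 5 library was below all others.

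IRF9 to STAT2 went from a log2 ratio of -0.10 ± 0.389 (SD, n = 3) in the untreated libraries, near equal shares, to 1.34 ± 0.151 at day 2, 2.46 ± 0.396 at day 3 and 2.21 ± 0.406 at day 5. In every NGI-1 library IRF9 was above STAT2 by TPM. IRF7 to IRF3 rose from -5.07 ± 0.609 to -1.99 ± 0.179, -1.72 ± 0.0826 and -1.80 ± 0.0796, so that the IRF7 share stayed below that of IRF3 in every library.

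**Figure D3:**
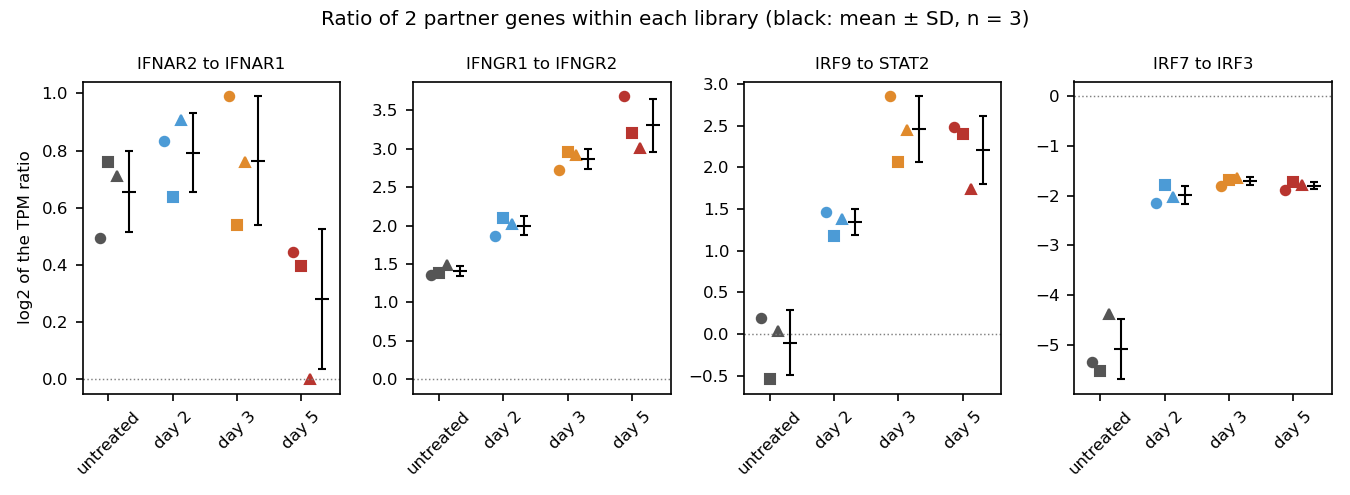
Log2 ratio of the TPM of partner genes in each library by group, with 1 marker shape per replicate number and the group mean ± SD (n = 3) in black; each panel has its own vertical axis. The ratio of IFNGR1 to IFNGR2 is higher in each later group, and those of IRF9 to STAT2 and IRF7 to IRF3 are higher in every NGI-1 library than in every untreated one.

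Interferon genes themselves were hardly detected. Of 21 interferon genes 15 were listed at 0 in all libraries, and the highest value was 0.298 TPM, for IFNL2, so that 0 were tested. For the lists that follow, called genes are counted on the deposited scale unless stated. The shares to set beside them are those of all tested features given above, 61.5% lower at day 3 and 69.8% lower at day 5, and 24.2% and 26.9% after rescaling. The counts cover the genes that passed the filter, and a gene under 1 TPM in an untreated library passed only with the help of NGI-1 libraries, where it was high. None of the 9 genes is of that kind. Of the JAK kinases and other STATs reported here, 7 of 8 genes were tested. STAT4 and JAK1 rose and TYK2 fell at day 2, 0 rose and 3 fell at day 3, and 0 rose and 5 fell at day 5, with medians of 0.06, -0.35 and -0.61. After rescaling 3, 2 and 3 were called higher and 0, 1 and 0 lower on days 2, 3 and 5. Of the falls of this list, only that of TYK2 at day 3 was still called on that scale. JAK1, the kinase carried by IFNAR2, went from 0.54 (limma adjusted p = 0.0208) at day 2 to -0.61 at day 5, and was called higher at both times after rescaling (0.75 and 0.54). TYK2, the kinase carried by IFNAR1, was at -0.53, -1.34 and -1.38 on the 3 days, and after rescaling at -0.30, -0.51 and -0.21, called at day 3 only. STAT4, at the upper end of the list at day 5, was at -0.04 (limma adjusted p = 0.755), and 1.05 after rescaling. STAT5B, a STAT of cytokine and growth hormone signaling, had the largest fall (-1.46, limma adjusted p = 1.35e-06). After rescaling this fall was -0.45 (adjusted p = 0.00712), under the size set for a call.

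Of the other IRFs 3 of 5 were tested, IRF2, IRF4 and IRF5. At day 2, 0 were called, at day 3, IRF4 and IRF5 fell, and at day 5 all 3 fell, IRF2 with a log2 fold change of -1.10 and IRF5 with -0.62. After rescaling IRF2 was at 0.09 and IRF5 was called higher at 0.52, so the falls did not hold on that scale. Of the type III and related receptors, 3 of 4 were tested: IFNLR1 and IL10RB fell at days 3 and 5, and IL10RA rose at day 2 (0.69) and was at 0.32 (limma adjusted p = 0.0894) at day 5. After rescaling IFNLR1 was not called at day 3 (-0.37, limma adjusted p = 0.0137) or day 5 (-0.46, adjusted p = 0.00337), both under the size set for a call. IL10RB was called at day 5 and not at day 3 (-0.96, limma adjusted p = 0.0635), and IL10RA was called higher on all 3 days (0.80, 0.55 and 1.25).

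The list of nucleic acid sensors and adaptors held 17 tested genes, most of which act upstream of IRF3 and IRF7. Of these 6 rose and 3 fell at day 2, 3 rose and 9 fell at day 3, and 1 rose and 11 fell at day 5, with medians of 0.12, -0.51 and -0.92. After rescaling 6 rose and 5 fell at day 5. RIGI, listed as DDX58, was under 1 TPM in the untreated libraries and passed the filter through days 2 and 3. Of the other 16 genes, 5 rose and 3 fell at day 2, and 2 rose and 9 fell at day 3. At day 5, 1 of these 16 rose and 11 fell, and after rescaling 5 rose. The 1 gene that rose at day 5 on the deposited scale was AIM2, a DNA sensor of the inflammasome. It does not signal through IRF3 or IRF7, so that 0 of the genes upstream of these factors rose on that scale. Of all tested features 7.73% were called higher there, and 27.5% after rescaling. The list genes called higher at day 5 after rescaling, besides AIM2, were TBK1 (1.39), IFIH1 (1.15), IRAK4 (0.9995), RIGI (0.75) and IFI16 (0.66). The 0 therefore holds for the deposited scale only. The level of AIM2 went from a mean TPM of 4.01 ± 0.587 (SD, n = 3) to 55.5 ± 1.18 at day 5 (log2 fold change 3.50, limma adjusted p = 5.92e-12). CGAS, the DNA sensor that signals through STING1 to IRF3, had the largest fall, from 20.4 ± 1.42 to 2.52 ± 0.442 (-2.61, limma adjusted p = 7.80e-10), and -1.57 after rescaling.

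Of 14 tested inhibitors of interferon signaling, 2 rose and 2 fell at day 2, 2 rose and 11 fell at day 3, and 1 rose and 11 fell at day 5, with medians of -0.13, -0.79 and -1.13, close to those of all features. After rescaling 4 rose and 5 fell at day 5. USP18, which binds IFNAR2 and dampens its signaling, was called higher at day 5 (0.55, limma adjusted p = 0.00209), with a mean TPM of 0.189 ± 0.0719 (SD, n = 3) untreated and 0.746 ± 0.0900 at day 5. It was under 1 TPM in all libraries of both groups and passed the filter through days 2 and 3, when its mean TPM was 1.53 and 1.35. PTPN11, a phosphatase, had the largest fall (-2.32, limma adjusted p = 8.59e-09), and was at -1.17 after rescaling, also called.

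Of 36 type I interferon targets 31 were tested, and of these 27 rose and 0 fell at day 2, 23 rose and 2 fell at day 3, and 19 rose and 4 fell at day 5, with medians of 1.54, 1.40 and 0.87 against -0.18, -0.73 and -0.99 for all features. After rescaling 28 rose and 0 fell at days 3 and 5. The filter bears on these counts and medians: 9 of the 31 genes, IFI44, IFI44L and IFIT1 among them, were under 1 TPM in at least 1 untreated library. Of the other 22 genes 19 rose and 0 fell at day 2, 16 rose and 2 fell at day 3, and 11 rose and 4 fell at day 5, where 8.04%, 7.59% and 7.73% of all tested features were called higher. IFI27 had the largest rise at day 5, from a mean TPM of 22.0 ± 2.96 (SD, n = 3) to 1059 ± 46.3, and ADAR, an RNA-editing enzyme with an interferon-inducible isoform, the largest fall (-1.44, limma adjusted p = 6.88e-06), which was -0.22 and not called after rescaling.

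Of 25 interferon gamma targets 15 were tested, among them GBP2, GBP3 and CXCL10, which were under 1 TPM in at least 1 untreated library. Of the 15, 5 rose and 1 fell at day 2, 4 rose and 4 fell at day 3, and 4 rose and 6 fell at day 5, with medians of 0.34, -0.18 and -0.32. After rescaling 9 of the 15 rose and 1 fell at day 5. The filter bears on these counts too. Of the other 12 genes, 4 rose and 1 fell at day 2, and 2 rose and 4 fell at day 3. At day 5, 2 of these 12 rose and 6 fell, and after rescaling 6 rose. B2M, the light chain of HLA class I, had the largest rise (1.96, limma adjusted p = 2.29e-11) and PSMB8, an immunoproteasome subunit, the largest fall (-1.76, limma adjusted p = 7.13e-10), called lower also after rescaling (-0.56).

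**Figure D4:**
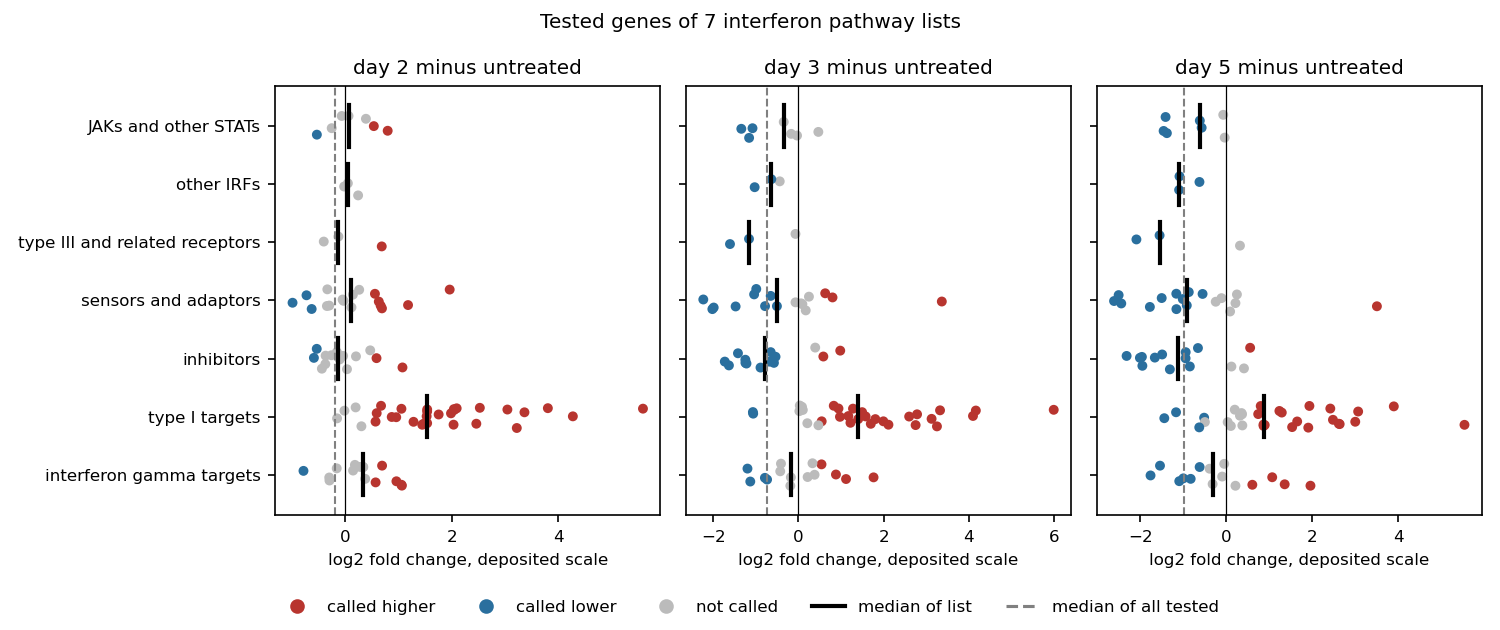
Log2 fold change against untreated of the tested genes in 7 interferon pathway lists on the deposited scale at 2, 3 and 5 days of NGI-1, with each gene a point colored by its call, the list median as a black bar and the median of all tested features as a dashed line. The type I targets that passed the filter have a median of 0.87 at day 5, and the inhibitors lie near the dashed line with a median of -1.13. The first median includes 9 of 31 genes that were under 1 TPM in an untreated library and passed with the help of NGI-1 libraries. Of the other 22, 11 were called higher and 4 lower at day 5.

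The features whose course was most like that of each gene were sought by Pearson's r over the 12 libraries on the rescaled log2 scale, among the 5433 features averaging 10 TPM or more. These are descriptions over libraries that fall into 4 groups. IRF9 was nearest to H1-2, a linker histone (r = 0.994), and HLA-B (0.992), and IRF7 to CTSF, a cathepsin (0.994), and IFI27 (0.994). IFNGR1 was nearest to H2AC6, a core histone (0.997), and SIAE (0.994). IFNAR2 was nearest to GABRR1 (0.981) and XBP1, a plasma cell factor of the unfolded protein response (0.975), and IFNAR1 to PITRM1 (0.967) and CHP1 (0.966).

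STAT2 was nearest to CAMK1D (0.983) and RUNX2 (0.977), IRF3 to ASB3 (0.974) and SLAIN1 (0.972), and IRF1 to CHPF (0.953) and PLPP5 (0.947). For IFNGR2, SEC63 of the endoplasmic reticulum translocon was at 0.895. Among the 9 genes, IRF9 and IRF7 had the closest courses (r = 0.984), then IRF9 and IFNGR1 (0.969), while IRF9 with STAT2 gave 0.779 and IFNAR1 with IFNAR2 0.806.

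All 9 plasma cell markers were detected in every group, JCHAIN at up to 24900 TPM. Markers of B cells (summed 0.0195 to 0.471 TPM over 5 genes) and of fibroblasts and stroma (0 to 0.448 TPM over 4 genes) were near 0. Of 5 T and NK cell markers, CD3E alone reached 1 TPM in a library, with a summed level of 2.75 to 7.23 TPM, and of 5 monocyte markers CD68 alone did, falling from a mean TPM of 5.36 to 0.503 at day 5. KRT8 and KRT18 gave a summed epithelial level of 6.47 to 26.6 TPM, with EPCAM at 0 and CDH1 under 1 TPM. The part of these markers in the results was not tested. Pearson's r between replicates over the tested features was 0.985 to 0.992.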

How the data were processed

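Total RNA of MM1S cells was sequenced in 12 paired-end libraries from 200 ng each, to a depth of over 60 M pairs per the labels. The submitters' processing notes name FastQC, Trimmomatic, STAR, Salmon and the build hg38, with versions, annotation and strand setting not given in the sources used here. The authors deposited log2 values of TPM plus 1 for 59276 features listed by symbol. The 11939 features that reached 1 TPM in 3 or more libraries were tested. A linear model with 1 mean per group was fitted with limma 3.58.1 in R 4.3.3, with moderated, two-sided tests, a mean-variance trend and Benjamini-Hochberg adjustment within each of 5 contrasts. The procedure was tested on simulated data. Tables and figures were made with pandas 2.3.3 and matplotlib 3.10.9. Gene positions came from GENCODE release 29 on GRCh38 and promoters from RefSeq (GRCh38.p14).

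The 9 genes, the pathway lists and the markers were chosen with earlier results of these data known. The lists were written from general knowledge, and 1 gene, RIGI, was matched by its older symbol DDX58. Named genes are the 9, the largest rise and fall of each list at day 5, and the 2 features most like each of the 9. IRF4, IFNLR1, JAK1, TYK2 and the overlapping genes are named besides. So are some list genes under 1 TPM in an untreated library, and the sensor list genes higher at day 5 after rescaling. Some results, 1 list gene among them, are not reported here. Alternatives were rescaling, no filter, a pseudocount of 0.1, pairwise fits, the adjusted p alone and leaving out each library. Leaving out day 3 replicate 2 and day 5 replicate 3 together was added after seeing the data. Protein sequences were not analysed here.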

Additional observations from a re-analysis of the deposited data

Results flagged for a closer look

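On the deposited scale 5 of the 9 genes were called lower in the limma contrast of day 3 with day 2, a share near the 55.5% of all tested features called lower there. From day 2 to day 3 the log2 fold change was -0.92 for IFNAR1, -0.96 for IFNAR2, -0.80 for IFNGR2, -0.94 for STAT2 and -0.98 for IRF1, with adjusted p-values between 2.62e-05 and 0.00111. After rescaling the 5 values were -0.30, -0.33, -0.25, -0.34 and -0.37, and none of them was called. All 5 were under the size set for a call. The limma adjusted p after rescaling was 0.00653 for IFNAR2, 0.0375 for STAT2, 0.00363 for IRF1, 0.0904 for IFNAR1 and 0.172 for IFNGR2. From day 3 to day 5 it was -0.98 for IFNAR2, and -0.64 after rescaling, both called; of all tested features 13.1% and 2.03% were called lower.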

How the results depend on the processing

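No paired analysis was possible because the labels number the libraries consecutively and give no replicate number that pairs them. The values of the 9 genes in the 5 contrasts kept direction and call without the filter, with a pseudocount of 0.1 and in pairwise fits (45 of 45 each), and in 21 of 45 after rescaling. Rescaling turned the direction of IRF3 (0.19, 0.48 and 0.51 on days 2, 3 and 5), IFNGR2 (0.18 and 0.023 on days 3 and 5), STAT2 (0.57 and 0.92) and IRF1 (0.25 and 0.32) against untreated. It also turned IFNGR1 (0.56), IRF3 (0.30) and IRF7 (0.54) between days 2 and 3, and IFNGR1 (0.24), IRF9 (0.12), IRF1 (0.068) and IRF3 (0.025) between days 3 and 5. Counts of the 9 genes moved with rescaling to 1 lower at day 3, 5 higher and 2 lower at day 5, and 3 higher and 0 lower between days 2 and 3. Of the 90 tested genes of the pathway lists, each counted once, 2 in place of 7 were lower at day 2. At day 3, 50 in place of 32 were higher and 8 in place of 33 lower. At day 5, 52 in place of 25 were higher and 12 in place of 42 lower. Of all tested features, 11.4% in place of 23.2% were lower at day 2. At day 3, 23.9% in place of 7.59% were higher and 24.2% in place of 61.5% lower. At day 5 these were 27.5% in place of 7.73% and 26.9% in place of 69.8%. The 90 include genes under 1 TPM in an untreated library, which passed the filter with the help of NGI-1 libraries. Rescaling divides out the fall of most features as shares. With the adjusted p alone, 1 gene was lower at day 2 (IFNAR2) and 2 between days 3 and 5 (IFNAR2 and IRF3).

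Leaving out 1 library gave 2 to 4 lower genes at day 3 and 1 to 3 between days 3 and 5. It ranged over 0 for IRF3 at day 2 (-0.074 to 0.015), IRF7 between days 2 and 3 (-0.11 to 0.029) and STAT2 between days 3 and 5 (-0.20 to 0.20), none of them called. Without day 3 replicate 2 and day 5 replicate 3 together, 3 genes were lower between days 3 and 5, with IFNAR1 at -0.51 and IFNGR2 at -0.60, and STAT2 was at -0.010. With 3 libraries a group and no read counts, small differences in low genes such as IFNGR2 and IRF7 are the least certain.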
